A study of Mus musculus with 24 samples.

Results

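The genes described here encode the proteins of the cytosolic ribosome. They were chosen by gene name: every name on the array that began with Rpl or Rps followed by a digit, or with Rplp, and Rpsa, without the Rps6k kinases and without names that mark pseudogenes. The rule gave 87 names of the 37325 gene names on the array, carried by 186 probes. Of these, 77 are core ribosomal protein genes (43 of the large subunit, 31 of the small subunit and the 3 genes of the stalk), and 10 are paralogs or other names. All but Rpl10l had a probe that passed the filter on dim probes, so 86 members were tested, and 84 of them were well above background on all 24 arrays.

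RNA came from bone marrow derived macrophages of mice, cultured for 6 days in M-CSF at 20 ng/ml and then kept for 24 h without further treatment (M0), with LPS at 5 ng/ml and IFNγ at 10 ng/ml (M1), or with IL-4 at 10 ng/ml (M2). The KO macrophages came from Slc2a1M-/- mice, which lack GLUT1, the glucose transporter encoded by Slc2a1, in myeloid cells through a Cre recombinase driven from the lysozyme M locus. The WT macrophages came from Slc2a1 fl/fl mice, the floxed controls. Each of the 6 groups held 4 samples called biological replicates, each on 1 Agilent one-colour array, and the labels used here give neither age nor sex of the mice.

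Slc2a1 itself had 1 tested probe, and it did not separate the genotypes: KO minus WT came to -0.34 ± 0.34 for M0, 0.30 ± 0.34 for M1 and -0.14 ± 0.34 for M2 (log2, SE, n = 4 each). Whether that probe lies in the deleted stretch is not stated, so it checks nothing. Lyz2, the gene at the Cre locus, was lower in KO in each state, by -2.67, -3.33 and -4.00 (log2) in M0, M1 and M2. Of the 8 other macrophage markers tested, 0 were below background on all arrays of an M1 group. The 24 arrays lay on 3 slides and were taken as 4 sets of 6, 1 array of each group in a set. Each of the first 3 sets sat on 1 slide. The other set was made of the remaining pairs of KO and WT arrays, with M0 on slide 1, M1 on slide 2 and M2 on slide 3, so that within it genotypes were compared on 1 slide and states between slides. That set stood apart: the Xist probe was well above background on 6 of its 6 arrays and on 2 of the 18 arrays of the other 3 sets. The main M1 results are therefore also given without it.

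Cytosolic ribosomes join a small subunit, which reads the mRNA, to a large subunit, which forms the peptide bond, and each ribosomal protein is needed in about equal amounts. The mRNAs of these proteins typically start with a C followed by a run of pyrimidines, the 5′ terminal oligopyrimidine or TOP motif, through which the kinase complex mTORC1 and the protein LARP1 control how much they are translated. Macrophages treated with LPS and IFNγ are known for high glucose uptake through GLUT1.

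The annotated start sites of part of the members show this feature, and it was not used to choose them. Below are windows of 20 bases before and 20 bases from the annotated start on, from the RefSeq promoter table (GRCm38.p6), 5′ to 3′ on the strand of the gene. Capitals mark the longest run of C and T letters that begins with C and has at least 8 letters. The first 4 genes have such a run in the window shown, though Rpl35a and Rps24 also have windows without it. The last 2, which are not core ribosomal proteins, have none. These are examples: 29 of the 57 core members with a window have no run, and Rpl22l1 and Rps27l, which are not core, have it.

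Rpl35a, chr16:33056462-33056501, plus strand: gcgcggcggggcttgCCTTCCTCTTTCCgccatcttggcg

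Rps6, chr4:86857348-86857387, minus strand: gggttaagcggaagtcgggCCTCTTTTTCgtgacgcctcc

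Rpl27a, chr7:109519175-109519214, plus strand: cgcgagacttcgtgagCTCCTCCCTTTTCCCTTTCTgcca

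Rps24, chr14:24490658-24490697, plus strand: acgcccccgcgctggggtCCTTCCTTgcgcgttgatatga

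Rpl7l1, chr17:46782637-46782676, minus strand: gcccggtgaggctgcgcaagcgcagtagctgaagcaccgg

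Rps19bp1, chr15:80264287-80264326, minus strand: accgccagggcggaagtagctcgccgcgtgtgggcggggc

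A window was found for 66 of the 87 members. At least 1 window held the run in 30 of them (45.5%), against 3909 of the 27025 genes in the table (14.5%). Among the 57 core members with a window the run was present in 28 (49.1%), and among the 9 others in 2 (22.2%). On the opposite strand the same search found it in 4 of the 66 members (6.06%) and in 15.7% of all genes. A match describes the letters near an annotated start. The start used in these macrophages was not measured.

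In M1, nearly every ribosomal protein gene was higher in KO than in WT. Of the 86 members tested, 79 were called higher and 1, Rpl3l, was called lower, at an adjusted p under 0.05 in limma over all 25955 genes. The Rpl3l probe passed the filter on dim probes only through its WT M1 arrays. Among all genes 23.9% were called higher and 19.7% lower. With the replicate number as a block within a state, 80 members were called higher and 3 lower. The median difference over the members was 1.29 (log2), against 0.17 over all genes. For the 77 core genes it was 1.33, a 2.51-fold higher median level in KO. In 79 members every KO array lay above every WT array and in 2 every KO array lay below, against 23.6% and 20.0% of all genes.

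The difference covered both subunits. All 43 large subunit genes were called higher, with a median of 1.39 and a range of 0.64 to 2.52. Of the 31 small subunit genes, 30 were called higher, with a median of 1.29 and a range of 0.29 to 2.1. The 3 stalk genes, whose products form the protrusion that recruits elongation factors, were called higher at 1.1 (Rplp0), 1.05 (Rplp2) and 0.54 (Rplp1). In bulk RNA, a change in the kinds of cells and a change of RNA per cell cannot be told apart.

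**Figure D1:**
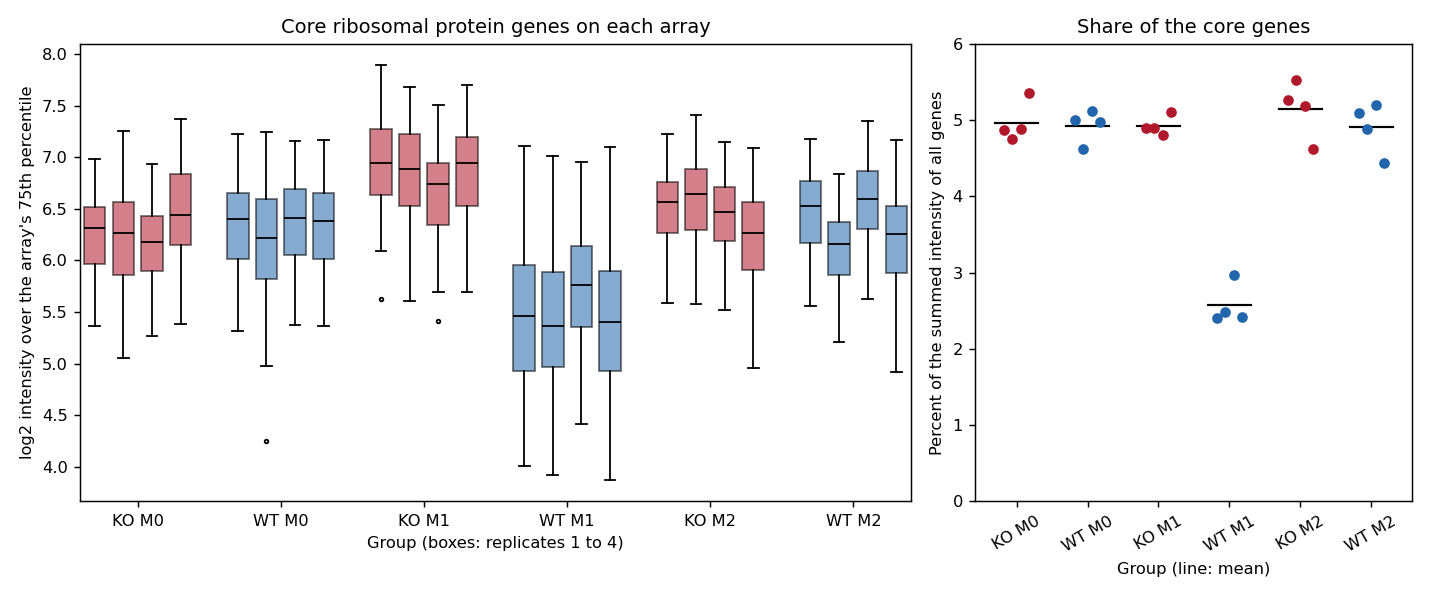
Levels of the core ribosomal protein genes without the dim Rpl37 probe on each of the 24 arrays, as log2 intensity over the array's 75th percentile (left; boxes span the quartiles of the genes), and the percent that the core genes made up of the summed intensity of all genes (right; points are arrays, lines are group means). KO is red and WT blue; the 4 WT M1 arrays lie between 2.4% and 2.96%, below all other arrays.

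The same shift was present in the intensities before any scaling. The core genes' median intensity lay between 267830 and 285688 units on the 4 KO M1 arrays, against 119075 and 153578 on the 4 WT M1 arrays, and the ratio of the means was 1.98. They made up 4.93% ± 0.13 of the summed intensity of all genes on KO M1 arrays and 2.57% ± 0.27 on WT M1 arrays (SD, n = 4 each). The other groups lay near the KO M1 share: 4.97% ± 0.27 in KO M0, 4.93% ± 0.21 in WT M0, 5.15% ± 0.38 in KO M2 and 4.91% ± 0.34 in WT M2. WT M1 therefore had the lowest share of the 6 groups, with no array overlapping another group. No gene spot was saturated: the brightest core probe reached 579706 units, and the saturation value was 777142 or more on each array.

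The levels that follow are log2 intensities relative to the 75th percentile of the array, given in the order of replicates 1 to 4. Rpl10a, which forms the stalk where spent tRNAs leave the ribosome, was at 7.01, 6.94, 6.83 and 7.0 on the KO M1 arrays, against 4.23, 4.70 and 4.35 on the 3 WT M1 arrays with a value. The spot of the remaining WT array was set aside as an outlier. The groups lay far apart and the difference was the largest among core genes, at 2.52 ± 0.14 (SE, adjusted p = 1.05e-10).

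Rpl3, which lies close to the peptidyl transferase centre, had levels of 6.64, 6.56, 6.53 and 6.58 in KO M1 and of 4.22, 4.51, 4.97 and 4.43 in WT M1. The difference was 2.05 ± 0.14 (adjusted p = 3.23e-10). In WT M1, replicate 3, which belongs to the set that stood apart, was the highest of the 4.

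Rpl5 and Rpl11 bind 5S ribosomal RNA and are known for holding back the p53 inhibitor MDM2 when ribosome assembly is disturbed. Rpl5 was at 6.31, 6.26, 6.10 and 6.34 in KO M1, against 4.24, 4.29, 4.78 and 4.35 in WT M1, a difference of 1.84 ± 0.13 (adjusted p = 1.13e-09). Rpl11 was at 7.11, 7.10, 6.83 and 7.14 in KO M1, against 5.81, 5.45, 6.10 and 5.74 in WT M1, a difference of 1.27 ± 0.15 (adjusted p = 6.58e-07). For both genes all 4 KO arrays were above all 4 WT arrays. When the probes of a gene were averaged, Rpl11 was no longer called (0.62, adjusted p = 0.18), because the average takes in a probe on another Rpl11 transcript that averaged 47.9 units.

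Rps6, the small subunit protein that S6 kinases phosphorylate downstream of mTORC1, was at 6.81, 6.78, 6.66 and 6.82 in KO M1, against 4.92, 4.95, 5.50 and 4.98 in WT M1. The difference was 1.68 ± 0.12 (adjusted p = 1.34e-09), with no overlap. Rps19, a small subunit protein mutated in Diamond-Blackfan anaemia in humans, was at 7.27, 7.15, 6.96 and 7.19 in KO M1, against 5.81, 5.72, 6.20 and 5.78 in WT M1. Its difference was 1.27 ± 0.13 (adjusted p = 1.46e-07), and here too WT replicate 3 was the highest of its group.

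Rps7, of the small subunit, was at 6.32, 6.25, 6.01 and 6.34 in KO M1, against 4.01, 4.02, 4.55 and 3.92 in WT M1, a difference of 2.1 ± 0.15. Rpl35a, of the large subunit, was at 6.67, 6.57, 6.24 and 6.64 in KO M1, against 4.49, 3.98, 4.54 and 4.33 in WT M1, a difference of 2.19 ± 0.15. Both showed no overlap, as did Rpl36a with a difference of 2.01 and Rps21 with 1.85. Rpl13a, which in human monocytes leaves the ribosome after IFNγ to silence inflammatory mRNAs, was higher in KO by 1.08 ± 0.29 (adjusted p = 0.0045). Its call was lost with quantile normalization (0.62) and with scaling on spike-in probes (0.50).

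**Figure D2:**
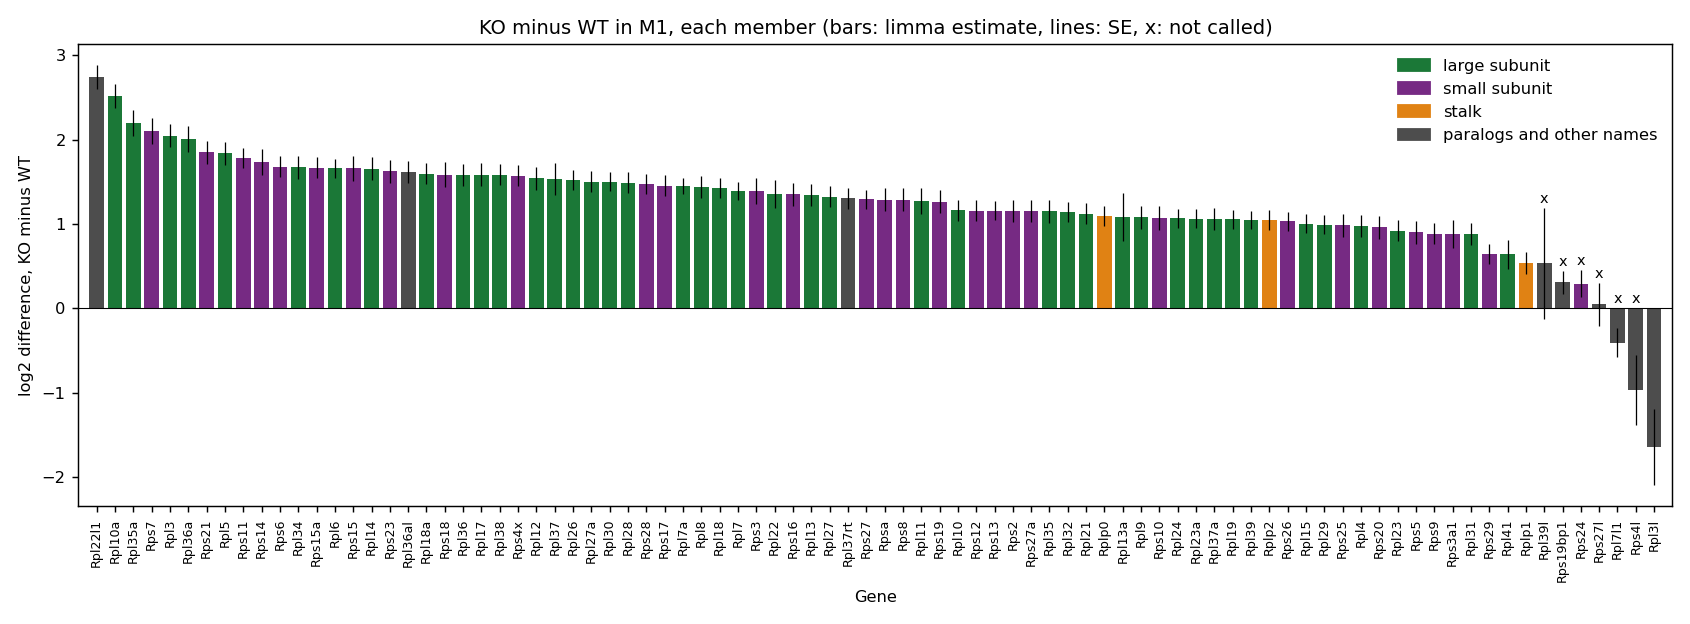
KO minus WT in M1 for each of the 86 members tested, as log2 difference on the vertical axis, ordered by size and coloured by class. Bars are limma estimates, lines their SE and an x marks a member that was not called; the bars run from 2.74 (Rpl22l1) to -1.64 (Rpl3l), and among the core genes Rps24 alone carries an x.

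The core gene that was not called was Rps24, which is expressed as several splice forms. Its brightest probe read 7.02, 7.19, 6.67 and 7.02 in KO M1, against 6.78, 6.66, 6.54 and 6.76 in WT M1, and the groups overlapped. The difference was 0.29 ± 0.16 (adjusted p = 0.15). The 4 Rps24 probes, annotated to different transcripts, disagreed in size: the others differed by 0.53 (adjusted p = 0.014), 1.42 (adjusted p = 0.00087) and 0.96 (adjusted p = 0.074) when every probe was tested.

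Rplp1, one of the acidic stalk proteins, also differed by probe. The probe with the highest mean log2 intensity, annotated to another transcript record than the others, gave 0.54 ± 0.13, with 7.29, 7.28, 6.93 and 7.16 in KO M1 and 6.63, 6.53, 6.67 and 6.67 in WT M1. The other 2 probes gave 1.02 and 1.06. With median scaling the Rplp1 difference was 0.25, with cyclic loess 0.19 and with spike-in scaling -0.05, none of them called. Whether this probe is called therefore depends on the scaling.

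The difference held in each of the 4 sets, and was smaller in the one that stood apart. The core median of KO minus WT in M1 was 1.45, 1.47 and 1.44 in the first 3 sets and 0.98 in the other, and every core gene with a value was above 0 in each set. The set that stood apart gave the smallest difference in 73 of the 74 core genes with a value in all 4 sets. Without it, 79 members were again called higher and 1 lower, with a member median of 1.44.

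In WT macrophages the ribosomal protein genes fell in M1. Relative to M0, 70 of the 86 members were called lower in WT M1 and 3 higher, where 22.9% and 23.2% of all genes were. The member median was -0.82, against -0.01 for all genes. Of the 77 core genes, 67 were called lower and 0 higher, with a median of -0.84, a 1.79-fold lower median level. In 73 members all WT M1 arrays lay below all WT M0 arrays and in 3 all lay above, against 21.6% and 22.8% of all genes. KO minus WT in M1 and this comparison share the WT M1 arrays. Neutrophil markers moved with this fall: of 10, 7 were lower in WT M1 than in WT M0 (among them Retnlg at -8.09, Ngp at -4.08 and Ltf at -4.04) and 1, Ly6g, was higher (5.16). Their summed intensity lay between 37824 and 136000 units on WT M1 arrays and between 230724 and 572192 on WT M0 arrays, and their part in the fall was not tested.

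The large subunit had 39 of 43 genes called lower (median -0.87), the small subunit 26 of 31 (median -0.83) and the stalk 2 of 3. Rpl10a was at 4.23, 4.70 and 4.35 on the 3 WT M1 arrays with a value and at 6.74, 6.49, 6.77 and 6.73 on the WT M0 arrays, a fall of 2.26 on the log2 scale (adjusted p = 2.15e-10). Rpl3 was at 4.22, 4.51, 4.97 and 4.43 in WT M1 and at 6.23, 6.04, 6.19 and 6.21 in WT M0, and fell by 1.64 (adjusted p = 5.06e-09). In both genes the lowest WT M0 array was more than 1 unit above the highest WT M1 array. Rpl36a fell by 1.63 and Rpl5 by 1.28. Rps6 fell by 1.05 on the same scale (adjusted p = 7.05e-07).

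Rpl37 had a dim probe, which averaged 129 units over the arrays, and its WT M1 signal was not well above background on any of the 4 arrays. Its levels were -6.60, -6.91, -6.34 and -6.55 in WT M1, against -4.40, -4.73, -4.56 and -4.32 in WT M0. Against the lowest signals that counted as above background, WT M1 was at least 3.29-fold lower than WT M0 (fitted difference -2.1, adjusted p = 1.57e-08). On KO M1 arrays 2 of 4 were above background, so no bound on the fold is given for KO M1 against WT M1. The fitted difference was 1.54.

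10 of the 77 core genes were not called in WT M1 relative to M0. The Rplp1 level was 6.63, 6.53, 6.67 and 6.67 in WT M1 and 6.60, 6.59, 6.68 and 6.58 in WT M0, a difference of 0.01 ± 0.13 (adjusted p = 0.95). These are values of the probe that stood for the gene. With every probe tested, limma gave -0.56 (adjusted p = 0.000104) and -0.59 (adjusted p = 7.6e-05) on the other Rplp1 probes. The Rplp1 probes therefore disagreed on whether there was a fall. The gene's estimate was -0.83 with quantile normalization and -0.59 with normexp background correction. The part of the choice of probe in these estimates was not tested. Rpl13a differed by -0.37 ± 0.29 (adjusted p = 0.32), with a lone low WT M0 array at 4.25 beside 5.78, 5.90 and 5.83. Without that replicate the Rpl13a difference was -0.75 and called.

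The fall in WT M1 was seen in each set as well. The core median was -0.89, -1.02 and -0.92 in the first 3 sets and -0.48 in the set that stood apart, where M1 and M0 lay on different slides. Without that set, 72 members were called lower and 3 higher, with a member median of -0.92.

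In KO macrophages the response to LPS and IFNγ looked different, and its direction depended on how arrays were scaled. With the 75th percentile, 77 members were called higher in KO M1 than in KO M0 and 1 lower (Rpl37), where 32.2% and 23.2% of all genes were. The member median was 0.55, against 0.25 for all genes. The same comparison gave 69 higher and 1 lower with median scaling (median 0.47), 62 and 1 with the 75th percentile over probes detected on all arrays (0.34), 7 and 2 with cyclic loess (0.03), 4 and 1 with spike-in scaling (0.13), and 3 and 24 with quantile normalization (-0.19). No direction for the group as a whole is therefore given for KO macrophages.

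Unscaled, the core median intensity in KO M1 was 0.984 of that in KO M0, whereas in WT M1 it was 0.505 of that in WT M0. The array's 75th percentile was itself lower in KO M1, at 2386 ± 115 units, than in WT M1, at 3141 ± 463 units (SD, n = 4 each), and it was 3658 ± 787 units in KO M0.

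**Figure D3:**
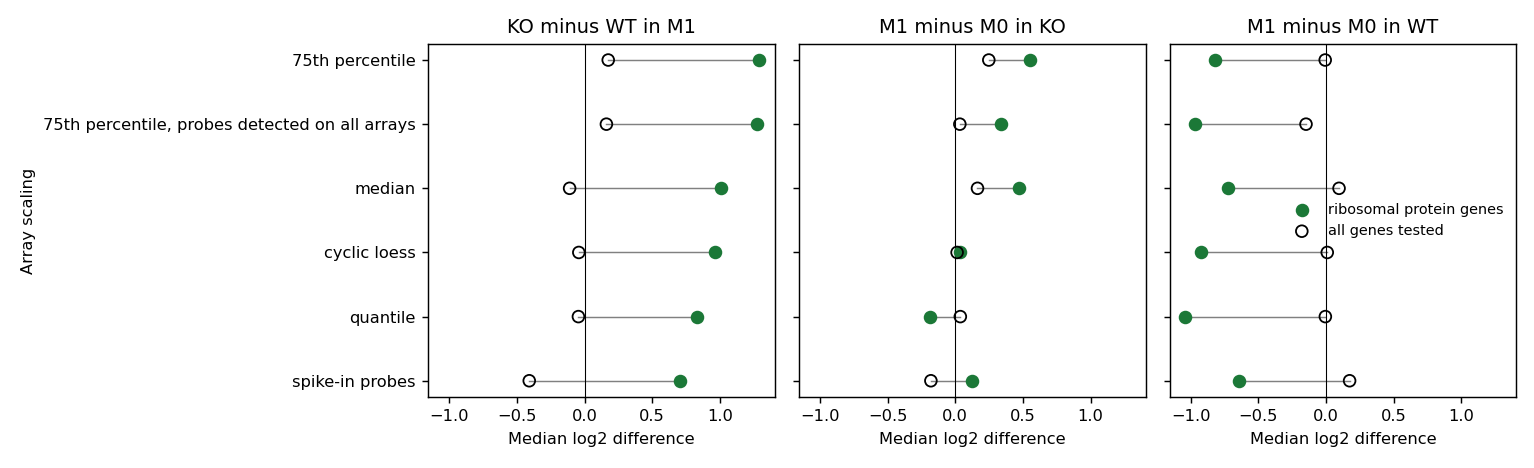
Median log2 difference of the ribosomal protein genes (filled) and of all genes tested (open) under 6 array scalings, for KO minus WT in M1 (left), M1 minus M0 in KO (middle) and M1 minus M0 in WT (right). The filled points stay above 0 on the left (0.71 to 1.29) and below 0 on the right (-1.04 to -0.64), and cross 0 in the middle (-0.19 to 0.55).

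The genotype difference in M1 did not turn with the scaling. KO minus WT in M1 had a member median of 0.83 with quantile normalization, 1.01 with median scaling, 1.28 with the 75th percentile over probes detected on all arrays, 0.97 with cyclic loess and 0.71 with spike-in scaling. The number called higher ranged from 67 to 80 and the number called lower from 1 to 3. Spike-in scaling moved the median of all genes to -0.41, with 2194 genes called higher and 9601 lower. The members stood 1.12 above that all-gene median, and 0.87 above it with quantile normalization. In WT, M1 minus M0 gave 54 to 78 members called lower and 3 higher under the 6 scalings.

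Under the 75th percentile, the largest KO M1 minus M0 values were those of Rps20 (1.06), Rps19bp1 (1.02), Rps24 (0.96), Rpl24 (0.92) and Rplp1 (0.79). Rps20, a protein of the small subunit's head, was at 7.33, 7.32, 7.05 and 7.16 in KO M1, against 5.88, 6.40 and 6.19 on the 3 KO M0 arrays with a value. Rplp1 turned to -0.29 with quantile normalization, and Rps24 and Rpl24 were not called there (0.20 and 0.17). The probes standing for genes were chosen anew under that normalization. Rpl37 was lower by -0.61 ± 0.19 (adjusted p = 0.0089), and its call was lost without replicate 1 (-0.38).

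The response to LPS and IFNγ itself differed between the genotypes. The test of KO M1 minus M0 against WT M1 minus M0 called 79 members higher in KO and 1 lower, where 15.6% and 13.5% of all genes were. Its member median was 1.34, against 0.16 for all genes. Among the core genes 76 of 77 were called, from 0.70 to 2.62 over the 77, and Rpl13a was the exception. With spike-in scaling the count was 46 higher and 1 lower, and the median 0.72. Averaged over the 3 states, KO minus WT was called higher for 75 members and lower for 0, where 15.3% and 12.0% of all genes were, with a median of 0.45. With the replicate block 75 were higher and 2 lower. The average was carried by M1: the member medians were -0.05 in M0, 1.29 in M1 and 0.09 in M2. In M0 and in M2, 0 members were called.

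Outside M1 no ribosomal protein gene passed the test between genotypes. In M0, 0 members passed in limma and 2 had an unadjusted p under 0.05, with a median of -0.05. Among all genes 0.00771% were called higher and 0.0462% lower in M0. In M2, 0 members passed and 1 had an unadjusted p under 0.05, with a median of 0.09, where 0.0193% and 0.0270% of all genes were called. The smallest p in M0 belonged to Rps24 (-0.41), Rps20 (-0.34) and Rplp1 (-0.24), and in M2 to Rpl37 (0.41), Rpl39 (0.19) and Rps27 (0.17).

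Few members differed after IL-4. In KO, 2 were called higher in M2 than in M0 and 0 lower, where 6.51% and 5.57% of all genes were, and 8 had an unadjusted p under 0.05. These were Rps20 (0.54 ± 0.15, adjusted p = 0.025) and Rps2 (0.45 ± 0.13, adjusted p = 0.025), both of the small subunit. Rps2 was at 6.26, 6.24, 6.22 and 5.94 in KO M2, against 5.82, 5.58, 5.62 and 5.86 in KO M0, and neither it nor Rps20 overlapped. Neither call was stable: leaving out single replicates ended them, and with outlier spots kept Rps20 was 0.06. Rpl22l1, at 0.41, came next and did not pass.

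In WT, 0 members passed in limma between M2 and M0 and 2 had an unadjusted p under 0.05, where 5.26% of all genes were called higher and 9.72% lower. The smallest p belonged to Rpl36al (0.38), Rps2 (0.28) and Rpl7l1 (0.35). The test of the M2 response between genotypes called 0 of 86 members and 0 of 25955 genes, of which 2 members and 282 genes had an unadjusted p under 0.05.

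The paralogs and other names did not move as one. In M1, 3 of the 9 tested were called higher in KO, 1 lower and 5 not called, with a median of 0.31. Rpl22l1, a paralog of the large subunit protein Rpl22 that can take its place in ribosomes, gave the largest difference of all members. It was at 5.07, 4.65, 4.76 and 4.87 in KO M1, against 1.98, 2.03, 2.43 and 1.95 in WT M1, a difference of 2.74 ± 0.14 (adjusted p = 3.51e-11). In WT M0 it was at 4.31, 3.97, 4.20 and 4.18, so that WT M1 fell by 2.07 relative to WT M0. Its counterpart Rpl22 was at 5.63, 5.61, 5.41 and 5.70 in KO M1, against 4.23, 4.13, 4.42 and 4.14 in WT M1, a difference of 1.36 ± 0.16.

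Rpl36al and Rpl37rt went the way of the core genes. Rpl36al, whose product is nearly the same protein as that of Rpl36a, was at 4.99, 4.77, 4.79 and 4.92 in KO M1, against 3.03, 3.57 and 3.16 on the 3 WT M1 arrays with a value. Its difference was 1.62 ± 0.13, beside 2.01 ± 0.15 for Rpl36a. Rpl37rt, a retrotransposed copy of Rpl37 by its name, differed by 1.3 ± 0.13. Near-identical copies could share signal on either probe.

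Rpl3l, a paralog of Rpl3 known from heart and skeletal muscle, went the other way near the background. It was at -7.26, -7.49, -6.84 and -7.39 in KO M1, where its probe was above background on 0 of 4 arrays, against -6.01, -5.46, -5.12 and -5.83 in WT M1, where it was above on 4 of 4. The fitted difference was -1.64 ± 0.45 (adjusted p = 0.0055), and the background allows no bound on the fold. Relative to WT M0, where 1 of 4 arrays was above background, WT M1 was higher by 1.98 (adjusted p = 0.0011). The KO minus WT call was lost with normexp background correction (-0.26) and without replicate 2 (-1.51).

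Rpl7l1, which resembles Rpl7 and takes part in assembling the large subunit, was at 0.37, 0.52, 0.02 and 0.53 in KO M1, against 0.68, 0.77, 0.68 and 0.92 in WT M1. All 4 KO arrays lay below the WT arrays, yet the difference of -0.40 ± 0.17 did not pass. It was called lower under 10 alternatives, among them the replicate number as a block within a state, with values between -0.33 and -0.99. The alternatives run included spike-in and median scaling, which moved the median of all genes to -0.41 and -0.11. A shift of that kind is not particular to Rpl7l1. Relative to WT M0, WT M1 was higher by 0.74 ± 0.17 (adjusted p = 0.0011). Rpl7 itself was higher in KO by 1.39 ± 0.11.

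The array probes of Rpl3l and Rpl7l1, whose estimates differed in sign from those of their counterparts, are distinct from the counterparts' probes. The following 60-base probe sequences show this. Coordinates are those of the array files (mm9), probes that span an intron cover more than 60 bases, and capitals mark the longest run shared within a pair, which was 7 bases in both.

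Rpl3, chr15:79908295-79908445, minus strand: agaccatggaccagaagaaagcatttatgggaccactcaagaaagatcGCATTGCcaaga

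Rpl3l, chr17:24872413-24872681, plus strand: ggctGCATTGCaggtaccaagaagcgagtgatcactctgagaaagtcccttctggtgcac

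Rpl7, chr1:16092774-16092833, minus strand: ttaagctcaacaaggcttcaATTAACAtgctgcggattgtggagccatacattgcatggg

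Rpl7l1, chr17:46915373-46915432, minus strand: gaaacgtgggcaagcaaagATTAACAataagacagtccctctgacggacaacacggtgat

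The remaining names were not called in KO minus WT in M1. Rps27l, a p53 target that resembles Rps27, was at 4.88, 5.27, 4.61 and 5.17 in KO M1, against 4.97, 5.00, 4.73 and 5.04 in WT M1, a difference of 0.05, whereas Rps27 differed by 1.29 ± 0.11. Rps19bp1, which encodes a protein that binds Rps19 and is no ribosomal protein, differed by 0.31 ± 0.14 and was higher in WT M1 than in WT M0 by 0.65. Rpl39l, which is known from testis, differed by 0.53, with SDs of 0.92 in KO M1 and 0.62 in WT M1. Rps4l differed by -0.97, with KO M1 arrays spread from -1.16 to 0.80 against 0.53 to 0.88 in WT M1, and its counterpart Rps4x by 1.57 ± 0.12. Rps4l was called lower under 9 alternatives, with values between -0.97 and -1.55. The limit given for Rpl7l1, that some scalings moved all genes down, holds here too. With the replicate number as a block within a state, Rps4l was called lower and Rps19bp1 higher.

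**Figure D4:**
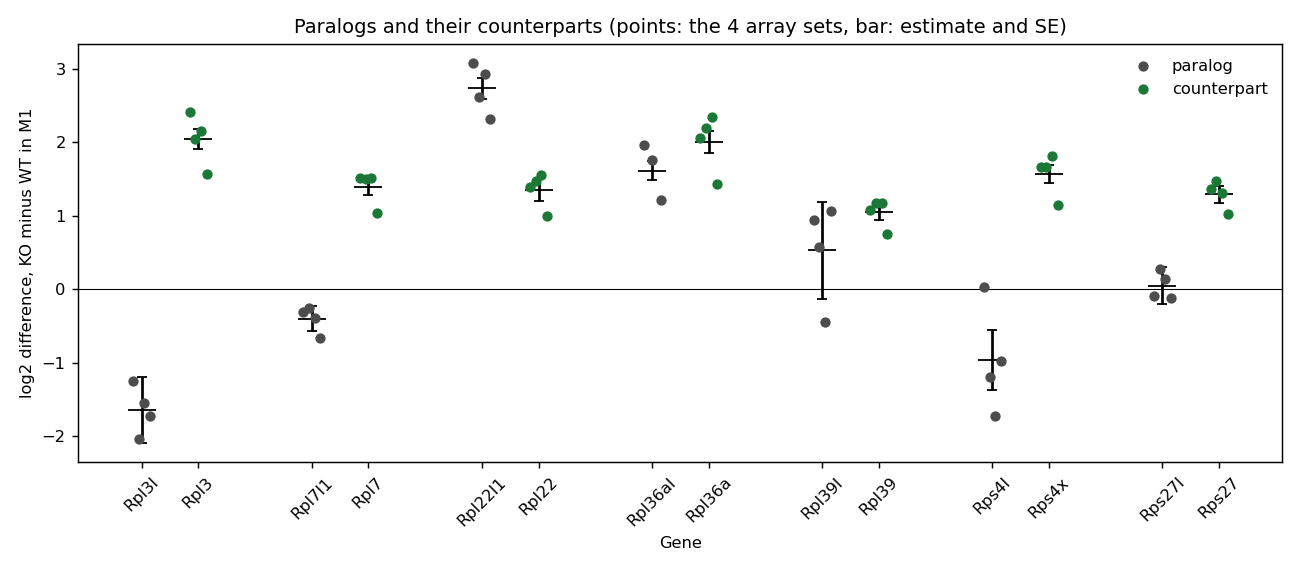
KO minus WT in M1 for 7 paralogs (grey) and their counterparts (green), as log2 difference. Points are the differences within the 4 array sets (3 of them for Rpl36al), horizontal bars the estimates and vertical lines their SE; each counterpart lies above 0 in every set, and only Rpl22l1 and Rpl36al among the paralogs do so too.

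The difference was also read probe by probe, with all kept probes tested. Of the 154 core probes that averaged over 10000 units, 151 were called higher in KO M1 than in WT M1 and 0 lower, where 25.4% and 19.4% of all 39036 probes tested were. Of the 19 dimmer kept probes, 12 were higher and 1 lower, from -0.56 to 1.79. In the 55 core genes with at least 2 bright probes, the dimmest of them gave the larger difference in 37, with medians of 1.46 against 1.34 for the brightest. For the fall in WT M1 the dimmest was larger in 42 of 55, with medians of -0.97 against -0.84. Across 76 core genes the difference and the log2 intensity had a Spearman rho of -0.33, given as a description of genes measured on the same arrays.

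1 bright probe moved against its gene. A probe for Rps9, a small subunit protein, on the transcript ENSMUST00000136858 (chr7:3657509-3657656, mm9) was higher in WT M1 than in WT M0 by 2.35 (adjusted p = 3.83e-06), and differed between genotypes by -0.74 (adjusted p = 0.066). The 2 bright probes on the reference transcript of Rps9 gave -0.60 and -0.37 in WT M1 relative to M0, and 1.07 and 0.89 in KO minus WT. It was singled out after its values were seen.

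For 84 of the 86 tested members the probe lay on the chromosome of the gene in RefSeq. The probes of Rps27 and Rps29 were placed on chromosomes 9 and 2, whereas the genes lie on chromosomes 3 and 12, so that near-identical copies cannot be told apart there. Among probes named for pseudogenes, which the rule left out, were KO minus WT differences in M1 of 1.35 (Rpl31-ps12), 0.98 (Rpl17-ps8), 1.70 (Rpl34-ps1) and 1.11 (Rps15a-ps6).

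Among the core genes, those with the pyrimidine run near their annotated start had a median KO minus WT difference in M1 of 1.23 (28 genes, 0.29 to 2.19), and those without it in the window 1.35 (29 genes, 0.64 to 2.52). Rpl35a, shown above with a run of 13 letters, differed by 2.19, and Rps24, with a run of 8, by 0.29. These are descriptions of genes measured on the same arrays.

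Other genes of protein synthesis were counted from lists, to be read against the 23.9% of all genes called higher and 19.7% called lower in KO minus WT in M1. Of 29 translation factors and other TOP mRNAs, 28 were higher in KO M1 than in WT M1 and 0 lower, with a median of 1.14. The largest were Snhg1 (2.33) and Snhg12 (2.3), host genes of small nucleolar RNAs, and Npm1 (2.1), the nucleolar chaperone nucleophosmin. Relative to M0, 18 of the 29 were lower and 3 higher in WT M1, where 22.9% and 23.2% of all genes were. Fau and Rack1, which encode ribosomal proteins under names that the rule does not catch, differed by 0.69 and 1.24, and were named after their values were seen.

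Of 59 ribosome assembly and rRNA processing genes, 33 were higher in KO M1 and 2 lower, with a median of 0.59. Gnl3, a nucleolar GTPase also called nucleostemin, differed by 3.26, Noc3l, an assembly factor of the large subunit, by 2.60, and Ncl, nucleolin, by 2.11. In WT M1 relative to M0, 9 of these genes were higher and 9 lower. Of 15 genes of RNA polymerase I, which makes ribosomal RNA, 6 were higher and 4 lower, led by Taf1d (2.23), Polr1c (1.74) and Polr1e (-1.27).

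The genes that act on TOP mRNAs and ribosome supply did not share 1 direction. In the mTORC1 list 15 of 38 were higher and 9 lower in KO M1, with a median of 0.23. The largest were Rragd (4.85), a Rag GTPase that places mTORC1 on lysosomes, and Ddit4 (2.66) and Sesn2 (1.57), stress-induced inhibitors of mTORC1. In the MYC network 5 of 11 were higher and 1 lower, with Myc at 3.36 ± 0.71, Mxd3 at 2.77 and Mxd1, a MYC antagonist, at -1.27. Of 18 p53 targets 5 were higher and 3 lower, with Gdf15 at 4.72, Plk2 at 1.05 and Cdkn1a, which encodes the cell cycle inhibitor p21, at -1.11. Among all genes 23.9% were higher and 19.7% lower in this comparison, and the p53 target counts lay near those shares.

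Mitochondrial ribosomal proteins, which serve a separate ribosome, did not follow. Of 78 tested, 15 were higher and 16 lower in KO M1 than in WT M1, near the 23.9% and 19.7% of all genes. Their median was -0.10, against the core median of 1.33. In WT M1 relative to M0, 24 were higher and 5 lower, where 23.2% and 22.9% of all genes were. The median was 0.14, against a core median of -0.84.

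Markers of other cells were read beside the result. Of 10 neutrophil markers, 3 were higher in KO M1 than in WT M1 (Camp 2.32, Ngp 2.4 and S100a9 2.3) and 1 was lower (Ly6g, -2.70). In this comparison 23.9% of all genes were higher and 19.7% lower, and these counts lay near those shares. The median difference of the 10 markers did not: it was 1.42, against 0.17 over all genes. The neutrophil markers' summed intensity lay between 108631 and 307975 units on KO M1 arrays and between 37824 and 136000 on WT M1 arrays. Retnlg was below background on all WT M1 arrays. Of 9 macrophage markers 1 was higher (Cd68, 0.56) and 3 lower (Lyz2, Mertk at -1.46 and Spi1 at -1.32), and their sum without Lyz2 lay between 1.06e+06 and 1.44e+06 units on KO M1 arrays and between 1.39e+06 and 1.82e+06 on WT M1 arrays. Relative to KO M0, KO M1 had 2 neutrophil markers higher and 1 lower, where 32.2% and 23.2% of all genes were. The test of the M1 response between genotypes called 0 of the 10, where 15.6% of all genes were called higher and 13.5% lower. The markers' median there was 1.76, against 0.16 over all genes. The part of these markers in the ribosomal protein result was not tested.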

How the data were processed

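Total RNA of 24 macrophage cultures was labelled with Cy3 and hybridised to Agilent mouse arrays, per the labels' protocols. The file headers name Agilent Feature Extraction 10.7.3.1 for the grid. Version 9.1 stands in the submitters' processing notes. The deposited intensity, the processed signal, had its background subtracted and its trends across the array removed by the authors' software, per the file headers. No normalization between arrays had been applied. Each file held 59305 gene spots of 56605 probes beside 3671 control spots. A deposited value table of the series was not used here. The number of arrays limits the precision.

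Outlier spots were left out, spots of a probe averaged as log2 intensity, and each array's 75th percentile subtracted. Probes well above background on at least 4 of 24 arrays were kept (39036), and the probe with the highest mean over all arrays stood for its gene. Of the members' values, 12 were missing because of outlier spots, and fits used the remaining arrays. limma 3.58.1 in R 4.3.3 fitted 6 group means with eBayes (residual df 18, prior df 1.97, median residual SD 0.339), with Benjamini-Hochberg adjustment over 25955 genes and calls at an adjusted p under 0.05. Where a probe was not well above background in a group, a fold was given only as a bound against the lowest signals above background. A bound was given only if the other group was above background on all its arrays. Tested on simulated data for KO minus WT in M1 (25955 genes, 200 changed), 6%, 44%, 72% and 76% of changes of 0.5, 1, 1.5 and 2 log2 units were recovered, with 3 false calls among 102. Far fewer genes changed there than were called in the data (6198 higher and 5108 lower), and its noise was independent between arrays. The rates therefore check the code and are not the power of the real test.

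Same-numbered KO and WT samples of a state tended to deviate together: their 12 correlations over genes ran from 0.17 to 0.85, against -0.57 to 0.40 for other numbers. The ranges overlapped: KO M0 replicate 4 gave 0.17 with WT M0 replicate 4 and 0.40 with replicate 3. The numbers were taken as pairs within a state. Such samples also shared a slide and a set, so paired cultures and a shared slide cannot be told apart. The members, context lists and marker lists were chosen with earlier results of these data known. Named genes were the 8 largest rises and falls between genotypes and the 5 largest between states that passed, or the 3 of smallest p where fewer than 3 passed, besides paralogs with their counterparts, stalk genes and a few well studied proteins. From each context list the 3 largest changes were named. Alternatives covered 5 other scalings (7 spike-in probes for one), background correction (normexp, offset 50), probe filters, probe choice, outlier spots, blocks, array weights and left-out replicates. The probe standing for a gene was chosen anew under other scalings, normexp and other filters, and with outlier spots kept.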

Additional observations from a re-analysis of the deposited data

Results flagged for a closer look

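The response to LPS and IFNγ differed between the genotypes for 29 of the 35 named genes. The test was limma's, of KO M1 minus M0 against WT M1 minus M0 (adjusted p under 0.05 over all genes). Part of these genes were named for large KO minus WT or M1 minus M0 changes on the same arrays. Their count is therefore no separate result. Among all genes 15.6% were called higher and 13.5% lower. The difference in response was 2.82 for Rpl22l1, 2.62 for Rpl10a, 2.11 for Rpl35a, 2.1 for Rps7, 2.09 for Rpl3, 2.05 for Rpl36a, 1.82 for Rps21, 1.78 for Rpl5 and 1.76 for Rps6 (log2). It was 1.65 for Rpl36al, 1.49 for Rpl37, 1.48 for Rps4x, 1.41 for Rpl7, 1.35 for Rps19, 1.35 for Rpl22, 1.32 for Rpl37rt, 1.32 for Rps27, 1.31 for Rps2, 1.31 for Rpl11 and 1.3 for Rps20. The remaining positive differences were 1.28 for Rpsa, 1.23 for Rpl10, 1.14 for Rplp0, 1.1 for Rpl24, 1.09 for Rplp2, 0.95 for Rpl39, 0.78 for Rplp1 and 0.70 for Rps24. Rpl3l had the only negative one among them, -2.07, with its probe below background on all KO M1 arrays and past the filter only through WT M1.

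A lone array, far from the other 3 of its group, was found in 16 of the 202 groups of values tested over the named genes, and chance gives about 1 in 20. The gap to the nearest array, as a share of the group's range, was 0.85 for Rpl10a, 0.93 for Rpl13a, 0.86 for Rpl22, 0.86 for Rps19 and 0.92 for Rps27l in WT M0, where replicate 2 was low for these genes. In WT M1 it was 0.91 for Rps6 and 0.85 for Rps7, both through a high replicate 3. In KO M1 it was 0.87 for Rpl11 and 0.85 for Rpl13a, both through a low replicate 3. In KO M2 it was 0.89 for Rpl22, 0.88 for Rpl5, 0.90 for Rps2 and 0.93 for Rps27l, all through a low replicate 4, and 0.87 for Rps20 through a high replicate 2. In KO M0 it was 0.89 for Rplp0 through a high replicate 4 and 0.84 for Rps27l through a low replicate 2. The low M0 replicates 2, the M1 replicates 3 and the low KO M2 replicate 4 belong to the set of arrays that stood apart, and the part of that set in these values was not tested.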

How the results depend on the processing

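KO minus WT in M1 kept its direction for the members' median under all alternatives run, and moved by more than the spread with quantile normalization (0.83), median scaling (1.01), cyclic loess (0.97) and spike-in scaling (0.71). Over left-out replicates it ran from 1.25 to 1.44. For the M1 response the median moved to 0.82 with quantile normalization, 0.91 with cyclic loess and 0.72 with spike-in scaling, which called 47 members. For KO minus WT over the 3 states it moved to 0.31 with quantile normalization, 0.31 with median scaling and 0.28 with spike-in scaling, which called 41. M1 minus M0 in KO had most members called and a median that turned: -0.19 with quantile normalization (27 called), beside 0.34 with the 75th percentile over probes detected on all arrays, 0.035 with cyclic loess (9 called) and 0.13 with spike-in scaling (5 called). The cause was not tested. Medians near 0, of comparisons with at most 2 members called, also crossed it: KO minus WT in M0 (-0.05) reached 0.060 with cyclic loess, KO minus WT in M2 (0.09) -0.029 without replicate 2, M2 minus M0 in KO (0.18) -0.0076 with cyclic loess, M2 minus M0 in WT (0.03) -0.018 without replicate 3 and the M2 response (0.14) -0.0087 with quantile normalization.

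M2 minus M0 in KO called 2 members, and 1 with quantile normalization, 8 with median scaling, 0 with cyclic loess, 5 with spike-in scaling (median 0.44), 0 with probes averaged, 1 with outlier spots kept, 6 with the set as a block, 0 with only the compared arrays, 15 with array weights, 4 without the set that stood apart and 0 to 1 over left-out replicates. M2 minus M0 in WT called 0, and 1 with probes above background on all arrays, 1 with probes averaged, 1 with the set as a block, 6 with array weights and 1 without that set. Its median was 0.25 with spike-in scaling.

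Among single genes, KO minus WT in M1 turned for Rplp1 with spike-in scaling (-0.048, not called), and M1 minus M0 in KO turned for Rplp1 with quantile normalization (-0.29). M1 minus M0 in WT turned for Rpl11 with probes averaged (0.41). Rplp1, near 0 in the main fit there, was lower with quantile normalization (-0.83), normexp (-0.59) and probes averaged (-0.38). The Rplp1 probes that did not stand for the gene gave -0.56 and -0.59 there without any such change. With quantile normalization and normexp the probe standing for a gene was chosen anew. A change of probe and an effect of the processing cannot be told apart in those Rplp1 values. Of the values of 30 named genes recomputed for KO minus WT in M1, 628 kept their side of the threshold, 23 passed it newly, 7 lost it and 1 turned.

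With replicate numbers as a block within a state, KO minus WT in M1 called 80 members higher and 3 lower, with a median of 1.29, and the M1 response called 80 higher and 1 lower. It raised the number called lower to 3, against 1 without the block, and to 2, against 0, for KO minus WT over the 3 states. The total called in either direction moved by less than 1.5 times. Among the named genes the pairing added Rpl7l1 (-0.40), Rps4l (-0.97) and Rps19bp1 (0.31) in KO minus WT in M1 and Rpl13a (0.99) in the M1 response. Signal over background limits Rpl3l and the Rpl37 probe alone among the members tested.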
